A study of Schizosaccharomyces pombe with 22 samples.

Results

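The genes described here encode the proteins of the small (40S) subunit of the cytosolic ribosome in the fission yeast Schizosaccharomyces pombe. They are the probes whose names begin with rps and a number, with names of the mitochondrial ribosome left out. Of 5053 probe names for open reading frames (ORFs), 53 had such a name, and 2 more were added through their current symbols, rps001 and rps002. All 55 nuclear rps genes of the reference annotation therefore had an ORF probe. Among 4941 names of intergenic regions (IGRs), 55 were named for an rps gene, of which 3 were entered as missing and 52 carried signals. An IGR probe is named for a gene, and the labels do not say on which side of it the region lies.

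The series concerns Pst3, a homolog of Sin3, on spotted arrays. RNA came from a strain with pst3 under an nmt promoter (pst3nmt, source Hu1505), labelled repressed, on 2 arrays, and from wild type on 8. Chromatin arrays held DNA bound by Pst3 fused to green fluorescent protein (Pst3-GFP) against wild-type input (2 IGR arrays), a Pst3-GFP experiment with beads (2 IGR and 2 ORF samples), and histone H3 in hst2D, hst4D and wild type (1 IGR and 1 ORF sample each). No label gives separate cultures, so p-values measure the spread between arrays, which may be technical. The titles of the wild-type RNA arrays carry the codes 803, 804, 806 and 809, each on 2 arrays. The tests treat all 8 arrays as separate. The labels name no other allele, medium or growth stage for any group. A nmt promoter is turned down by thiamine.

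The 40S subunit reads the messenger RNA, and it is assembled in the nucleolus around a single ribosomal RNA before export to the cytoplasm. Sin3 proteins are scaffolds of histone deacetylase complexes. In S. pombe most ribosomal proteins are encoded by more than 1 gene, and many of their promoters carry a HomolD box, an element that takes the place of a TATA box, often with a HomolE box upstream of it. The 55 genes encode 31 proteins: 8 have 1 gene and 23 have several, of which 1 (Rps4) has 3. The genes lie on chromosomes I (28 genes), II (20) and III (7).

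The promoters below belong to the 5 genes that were lower on the pst3 arrays and to their paralogs. Each line shows the 80 bases before the annotated start of the gene, in RefSeq's genome build ASM294v3, 5′ to 3′ on the gene's own strand. Capitals mark exact matches, on either strand, to HomolD (CAGTCACA) or to the HomolE box. The capitals that open the rps1002 line are the tail of a HomolE match that starts before the window.
rps1901, chrII:3818199-3818278, plus strand: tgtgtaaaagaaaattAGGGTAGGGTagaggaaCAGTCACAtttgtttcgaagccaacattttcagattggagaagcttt
rps1902, chrII:535262-535341, plus strand: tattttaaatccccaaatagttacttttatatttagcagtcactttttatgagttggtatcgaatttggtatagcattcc
rps001, chrII:2778825-2778904, plus strand: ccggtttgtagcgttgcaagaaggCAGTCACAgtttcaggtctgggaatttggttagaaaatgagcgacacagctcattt
rps002, chrI:4037613-4037692, minus strand: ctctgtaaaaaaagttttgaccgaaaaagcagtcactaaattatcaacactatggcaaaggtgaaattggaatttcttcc
rps1001, chrI:3020329-3020408, minus strand: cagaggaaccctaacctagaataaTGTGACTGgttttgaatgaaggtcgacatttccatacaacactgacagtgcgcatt
rps1002, chrII:1447923-1448002, plus strand: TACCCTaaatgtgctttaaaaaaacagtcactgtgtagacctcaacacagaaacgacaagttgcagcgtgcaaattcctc
rps1502, chrI:3868979-3869058, minus strand: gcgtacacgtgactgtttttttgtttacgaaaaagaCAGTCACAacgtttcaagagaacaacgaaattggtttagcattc
rps1501, chrIII:798164-798243, plus strand: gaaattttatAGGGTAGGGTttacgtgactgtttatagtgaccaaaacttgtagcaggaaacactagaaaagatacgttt
rps2202, chrI:1512391-1512470, minus strand: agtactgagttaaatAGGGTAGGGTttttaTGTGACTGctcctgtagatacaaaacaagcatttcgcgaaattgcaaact
rps2201, chrI:1162659-1162738, minus strand: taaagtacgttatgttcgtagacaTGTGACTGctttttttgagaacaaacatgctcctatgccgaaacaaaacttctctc

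In a window from 250 bases before to 50 bases after the gene start, exact HomolD was found in 34 of the 55 rps promoters (61.8%). It was found in 54 of 83 large-subunit promoters (65.1%) and in 137 of 5112 promoters of all protein-coding genes (2.68%). Exact HomolE was found in 21 rps promoters (38.2%), in 20 of the 83 large-subunit promoters (24.1%) and in 64 of all promoters (1.25%). The median match in rps promoters began 52 bases before the gene start for HomolD and 70 bases before it for HomolE (-52 and -70). The letters of the motifs do not overlap each other. Lines without capitals can hold close variants, and a missing exact match says only that these letters are not in the window.

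Several facts of the arrays bear on every value below. The pst3 arrays had 1 deposited channel each and were printed with a probe layout not used for the wild-type arrays, so print and strain cannot be told apart. The pst3 probe itself averaged a log2 level of 10.14 on the arrays labelled pst3 repressed and 10.21 in wild type, so its level was 0.07 lower (-0.07, SE 0.39, adjusted p = 0.94 with limma) and the probe did not bear out the label. The strain is therefore named below as its label gives it. The wild-type arrays came from separate prints, replicates 1 to 5 from one and 6 to 8 from another. On wild-type replicate 3 the spots of 5 rps genes (rps1801, rps1902, rps21, rps29 and rps2802) were not above empty spots, although they were on the other 7 wild-type arrays. Signals were near the top of the range: 39 of the 53 tested rps probes had a saturated spot on at least 1 wild-type array and 22 on at least 1 pst3 array, which compresses differences between high levels.

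The expression comparison asked how rps RNA levels differed on the 2 arrays labelled pst3 repressed against the 8 wild-type arrays. Of 53 rps genes tested, 5 fell and none rose (limma, Benjamini-Hochberg adjusted p under 0.05 over 4527 genes). The 5 were rps1901, rps001, rps1001, rps1502 and rps2202, and each is 1 of a pair of paralogs. Over all genes 9.48% were called, 4.9% as lower and 4.57% as higher, so that the rps share of 9.43% was near the background although all 5 calls ran 1 way. At an unadjusted p under 0.05 there were 10 lower and 1 higher rps genes, and 24.6% of all genes reached it. The count of 5 was 1 without pst3 replicate 1, 3 without pst3 replicate 2, and 4 to 6 when a wild-type array was left out. It was 3 with median centring or with the print as a random block, and 8, of which 6 were lower, against wild-type replicates 1 to 5 alone, so that calls ran both ways under that setting.

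The largest fall was that of rps1901 (chrII:3818279-3819036), which encodes eS19, a protein that in budding yeast and humans is needed to mature the 3′ end of the 18S ribosomal RNA. Its log2 level was 10.58 and 11.09 on the pst3 arrays, and ran from 14.39 (lowest) over 14.84 (median) to 15.22 (highest) on the wild-type arrays. Both pst3 arrays lay far below all 8 wild-type arrays. This came to -4.01 (SE 0.37) with a limma adjusted p = 4.73e-05. Before normalization, in signal over background, on the pst3 array of replicate 1 the rps1901 spots read 2133 and 1872, and those of its paralog rps1902 read 15094 and 17223. On replicate 2 they read 7499 and 7880 for rps1901, and 62081 and 57345 for rps1902. The median background was 2923.5 and 2919.5 in the spot sets of pst3 replicate 1, above these rps1901 signals, and 13 and 13.5 in those of pst3 replicate 2. Wild-type replicate 7 gave 13797 to 23762 for rps1901 and 12590 to 20065 for rps1902 over its channels and spot sets.

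The second was rps001 (chrII:2778905-2779942), 1 of the pair of genes for uS2, a protein near the mRNA exit. Its log2 level was 11.14 and 11.59 on the pst3 arrays, against 13.41 (lowest), 13.70 (median) and 14.14 (highest) in wild type. The groups did not overlap, and the change came to -2.34 (SE 0.35, limma adjusted p = 0.00188). The third was rps1001 (chrI:3019326-3020328), for eS10, at the head of the subunit near the mRNA entry. Its log2 level was 10.71 and 11.21 on the pst3 arrays, against 12.60, 13.24 and 13.53 (lowest, median and highest) in wild type. These groups did not overlap either, and the change came to -2.16 (SE 0.38, limma adjusted p = 0.00464).

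The other 2 calls were smaller. The gene rps1502 (chrI:3868310-3868978) encodes uS19, which in budding yeast is needed for export of the subunit from the nucleus. Its log2 level was 14.41 and 13.91 on the pst3 arrays, against 15.30 (lowest), 15.77 (median) and 15.85 (highest) in wild type, a difference of -1.51 (SE 0.35, limma adjusted p = 0.019). The groups did not overlap, and 5 of the 8 wild-type arrays had saturated rps1502 spots, so the wild-type level may be underestimated. The gene rps2202 (chrI:1511592-1512390), for uS8, a protein of the body of the subunit, had log2 levels of 13.67 and 13.98 on the pst3 arrays, against 14.68, 15.08 and 15.52 in wild type. It fell by 1.27 (SE 0.36, limma adjusted p = 0.0419), the groups did not overlap, and 3 wild-type arrays had saturated spots. Under 20 other settings the call of rps1502 held in 15 and that of rps2202 in 8.

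**Figure D1:**
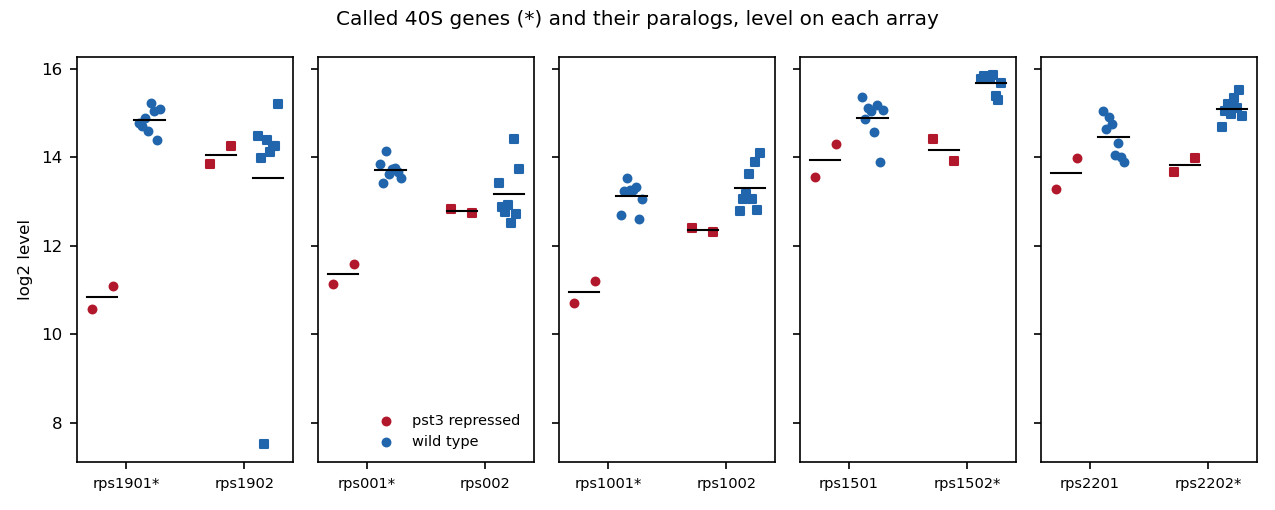
Log2 level (y axis) of the 5 rps genes that fell (marked by asterisks) and of their paralogs on each array, with pst3 arrays (red, n = 2) to the left of wild-type arrays (blue, n = 8) and black bars at group means. The red points of rps1901, rps001, rps1001, rps1502 and rps2202 all lie below the blue ones, and a blue point at 7.51 for rps1902 is wild-type replicate 3.

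None of the paralogs of these 5 genes passed the test. The other uS2 gene, rps002, had log2 levels of 12.83 and 12.73 on the pst3 arrays, against 12.51, 12.90 and 14.41 (lowest, median, highest) in wild type, and the groups overlapped (difference -0.39, SE 0.49, limma adjusted p = 0.682). The level of rps1002 was 12.41 and 12.32 on the pst3 arrays and 12.78, 13.11 and 14.10 in wild type, with no overlap and a difference of -0.95 (SE 0.43, limma adjusted p = 0.196). For rps1501 the levels were 13.55 and 14.31 against 13.90, 15.06 and 15.37, and for rps2201 they were 13.28 and 13.99 against 13.90, 14.48 and 15.05, with overlap in both. The level of rps1902 was 13.85 and 14.25 on the pst3 arrays and 7.51, 14.26 and 15.20 in wild type. Its difference was 0.52 (SE 1.44) with wild-type replicate 3 and -0.34 (SE 0.40, limma adjusted p = 0.641) without it, so its sign depended on that array.

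The 48 rps genes that did not pass ran from -1.57 (SE 0.55, limma adjusted p = 0.0896) for rps2501, which encodes eS25, to 1.35 (SE 0.50, limma adjusted p = 0.112) for rps1101, for uS17. Both pst3 arrays lay below all 8 wild-type arrays for 10 of the 53 genes (18.9%, against 10.7% of all genes), and above all 8 for 1 gene, rps1101 (1.89%, against 12.7% of all genes). In rps1101 the pst3 arrays read 15.57 and 15.84, and the wild-type arrays 13.42, 14.14 and 15.41 (lowest, median, highest log2 level). The levels of rps3001, for eS30, were 9.68 and 10.48 on the pst3 arrays, and 8.91 to 12.33 in wild type. The group SD of the wild-type levels was 0.44 at the median rps gene and 2.80 at the highest, for rps1801, whose level on replicate 3 was 7.32. Without replicate 3 the differences of the 5 genes dim on that array were -1.51 for rps2802, -1.14 for rps21, -1.06 for rps1801, -0.34 for rps1902 and 0.14 for rps29, and none passed the test. Leaving out replicate 3 brought 1 more call, rps13, for uS15 (-1.32, SE 0.37, limma adjusted p = 0.0368), whose level on that array was 11.20.

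**Figure D2:**
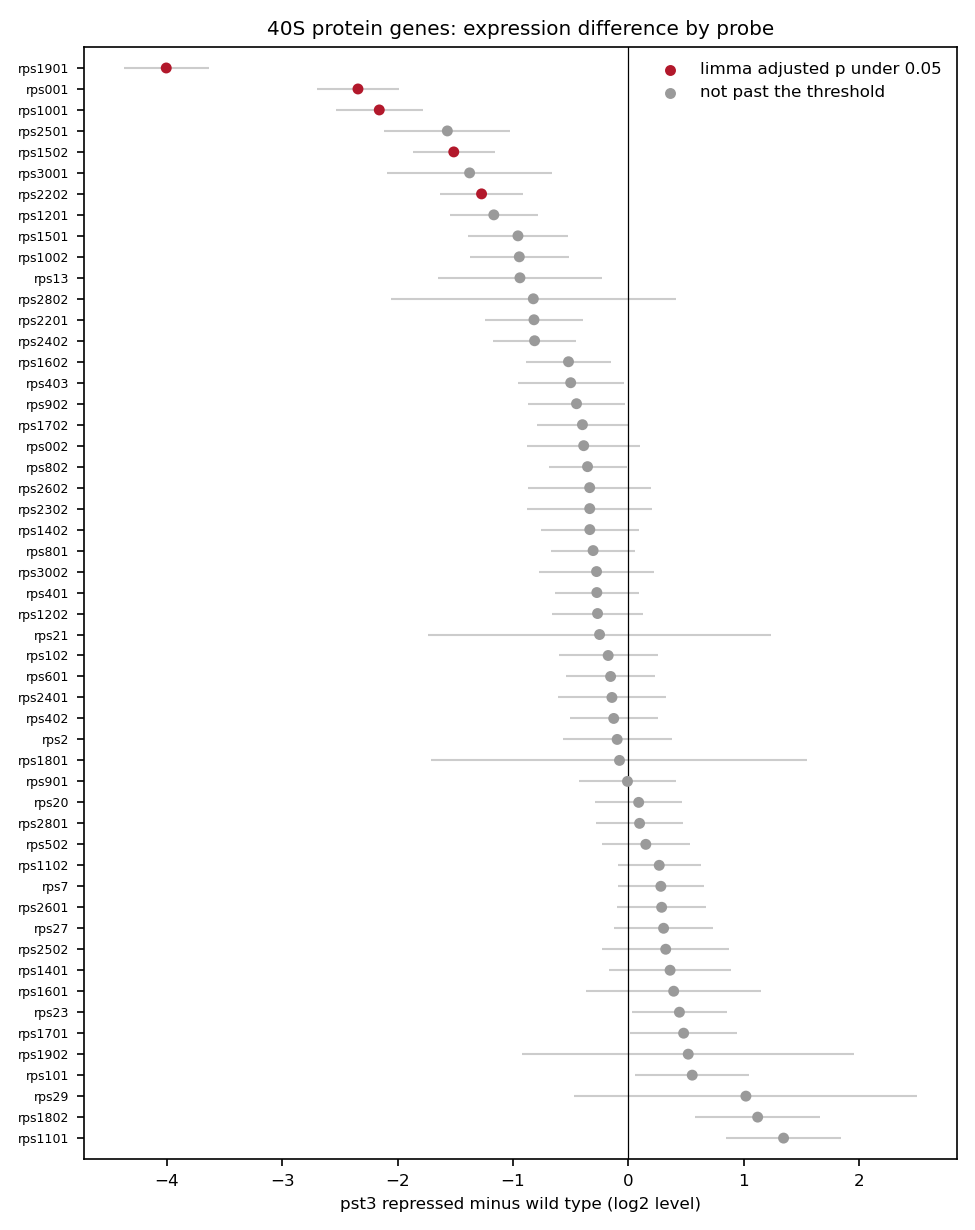
Difference in log2 level, pst3 repressed minus wild type (x axis), for 52 of the 53 tested rps genes (rows, sorted), with bars of 1 SE from limma. The 5 genes past the adjusted threshold are red, from -4.01 for rps1901 to -1.27 for rps2202, and the widest bars belong to genes dim on wild-type replicate 3.

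The median difference of the 53 genes was -0.27, against -0.03 over all genes, and 36 of 53 (67.9%) were below 0 against 51.6% of all genes. The rps median was -0.15 without pst3 replicate 1, -0.33 without pst3 replicate 2, -0.12 when only wild-type replicates 1 to 5 were used and -0.44 with only 6 to 8. The level of rps genes is high: 52 of the 53 were in the top 10% of wild-type level. The 401 other genes in that top group had a median of -0.31, 62.6% of them below 0, with 39 lower and 10 higher, so under quantile normalization the rps median stood no lower than that of other genes of high level. When arrays were centred on their medians instead, the medians were -0.81 for rps genes, -0.52 for the other genes of high level and 0.00 for all genes. Between wild-type replicates 6 to 8 and replicates 1 to 5, 1 of the 53 rps genes was called (rps3002, 1.09 higher on replicates 6 to 8, limma adjusted p = 0.0485), against 10.7% of all genes (6.01% lower and 4.66% higher). The rps median of that print difference was 0.39, with 26.4% below 0, against -0.02 over all genes, so it was larger in size than the median of -0.27 on the arrays labelled pst3 repressed against wild type.

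Genes with 1 copy and genes with paralogs could be set side by side. Of the 8 single-copy genes 7 were tested, none was called, and their median difference was 0.09, from -0.94 to 1.02. Of the 47 duplicated genes 46 were tested, 5 fell and none rose, and their median was -0.29. The single-copy genes with the lowest and highest differences were rps13 (-0.94), which passed the test without wild-type replicate 3, and rps29 (1.02), and rps29 was among those dim on wild-type replicate 3. Whether the groups differ was not tested. The gene rps3, for uS3 at the mRNA entry, is a single-copy gene that was not tested, because its name lies on 1 of 2 plates whose names appeared exchanged on the pst3 print. With the name as deposited its difference was -4.08, and with the signal of the exchanged position it was -1.45 (SE 0.97, limma adjusted p = 0.381). With that signal the pst3 arrays read 12.87 and 12.35. Wild-type replicate 1 read 10.20, and the other wild-type arrays read 14.12 to 15.07. The difference of rps3 without wild-type replicate 1 was not computed. The other untested gene, rps602, which with rps601 encodes eS6, a protein phosphorylated downstream of TOR, was not on the print of wild-type replicates 6 to 8. Against replicates 1 to 5 its levels were 12.71 and 12.07 on the pst3 arrays, against 13.21 to 14.42 in wild type, a difference of -1.37 (SE 0.43, limma adjusted p = 0.0595).

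Paralog pairs were compared by subtracting the log2 level of the second gene from that of the first on each array, so that no probe's level is set against another's between groups. Of 25 pairs 24 could be tested, each with an exact two-sided permutation test over the 45 arrangements of 2 and 8 arrays, whose smallest possible p is 0.0222. No pair passed after adjustment over the 24 (smallest adjusted p = 0.267), and 4 had an unadjusted p under 0.05. With so large a smallest p, a pair could pass only if many pairs reached it together, so this count of 0 says little. The median absolute change was 0.75, and 7 pairs changed by more than 1. The coding sequences of the pairs are 76.8% to 93.95% identical in the reference, with a median of 88.2%, and their longest shared runs are 14 to 150 bases, so probes of paralogs may share signal.

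The 3 pairs with the largest absolute changes each had their first gene lower. The difference rps1901 minus rps1902 was -3.27 and -3.15 on the pst3 arrays, and ran from -0.10 (lowest) over 0.52 (median) to 7.39 (highest) on the wild-type arrays, so the groups did not overlap. The change was -4.53 (exact permutation p = 0.0889), and without wild-type replicate 3, which holds the value of 7.39, it was -3.66 (exact permutation p = 0.0278). The difference rps001 minus rps002 was -1.69 and -1.14 on the pst3 arrays, against -0.66, 0.62 and 1.38 in wild type (lowest, median, highest), a change of -1.96 (exact permutation p = 0.0222) without overlap. The difference rps2501 minus rps2502 was -3.79 and -1.40 on the pst3 arrays, against -1.84 to -0.25 in wild type, where the groups overlapped (change -1.89, exact permutation p = 0.0444). Leaving out the pst3 array of replicate 1, the array at -3.79, gave a change of -0.70. The next pair, rps1001 minus rps1002, was -1.70 and -1.11 on the pst3 arrays, and -1.04 to 0.37 in wild type, a change of -1.21 (exact permutation p = 0.0222) without overlap.

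**Figure D3:**
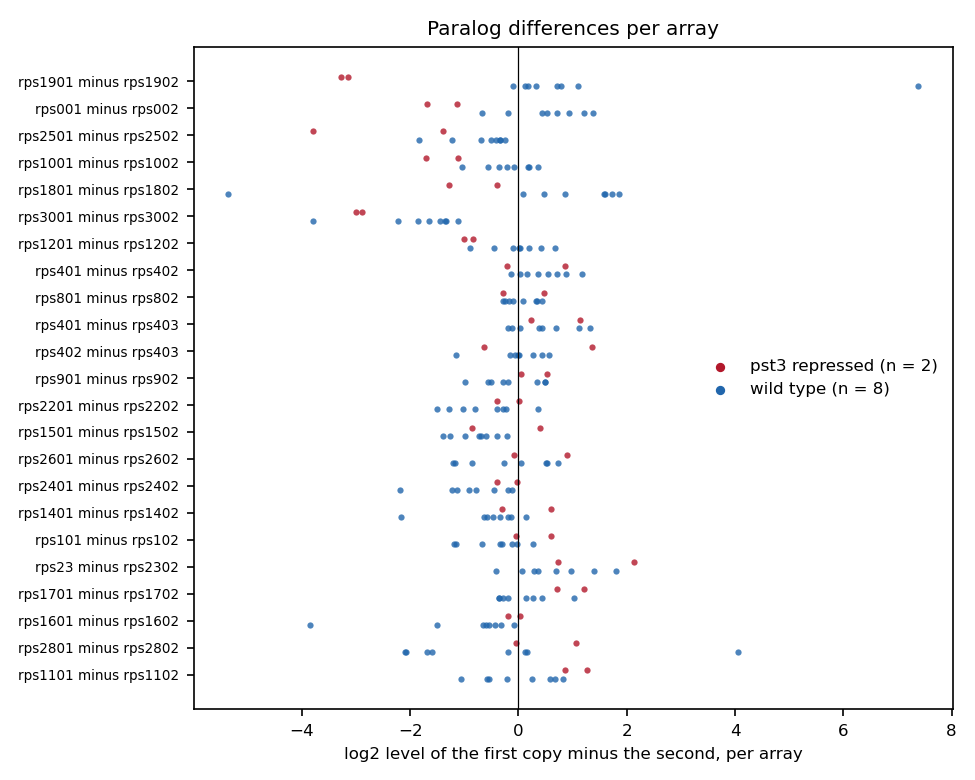
Log2 level of the first paralog minus the second on each array (x axis) for 23 of the 24 pairs tested (rows), with pst3 arrays (red, n = 2) drawn above wild-type arrays (blue, n = 8). The red points of rps1901 minus rps1902 lie at -3.27 and -3.15, below all blue points, and the blue point at 7.39 is wild-type replicate 3.

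All 5 genes that fell hold an exact HomolD match and 2 of them an exact HomolE match, while of their 5 paralogs 1 holds exact HomolD (rps2201) and 2 hold exact HomolE. This was noticed after their values were seen, is a count over 10 genes and has no test. The promoters of the paralogs without exact HomolD (rps1902, rps002, rps1002 and rps1501) all hold its letters up to the last base. The contrast in HomolD therefore rests on 1 base of the motif. Over all tested rps genes, the 32 with exact HomolD had a median difference of -0.29 (from -4.01 to 1.12) and the 21 without it -0.13 (from -0.96 to 1.35). The 20 with exact HomolE had a median of -0.15 and the 33 without it -0.33. By chromosome the medians were -0.18 on I, -0.27 on II and -0.40 on III. Among rps genes that are neighbours, rps2 and rps20, for uS5 and uS10, share a divergent promoter region of 490 bases on chromosome III and had differences of -0.10 and 0.09.

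The other lists of translation genes are given by their counts. Of 72 large-subunit genes tested, 4 fell and 1 rose, with a median of -0.10. The 3 with the smallest p were rpl7-3 (-2.44), rpl2801 (-1.72) and rpl35A02, the gene that rose (3.41), with limma adjusted p from 0.00431 to 0.0223. Of 13 genes of the mitochondrial small subunit, 1 rose (rsm1, 1.92, limma adjusted p = 0.011) and the median was 0.37. None of 10 genes for 40S assembly, 14 for TOR signalling and regulators of ribosomal protein genes, and 10 for translation initiation factor 3, which binds the 40S subunit, passed the test. Their medians were -0.52, 0.00 and -0.61. These lists were chosen with earlier results of these data known, and their counts are not independent evidence.

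In the Pst3-GFP arrays each IGR signal was divided by the authors' reference intensity and centred on the array median. Each array has 1 deposited channel, taken as the immunoprecipitate, which could not be checked, and by the labels the dyes were swapped between the 2 arrays. None of the 52 rps regions passed the test (limma adjusted p under 0.05), against 1.77% of all 4927 regions. At an unadjusted limma p under 0.05 there was 1 rps region, against 465 of all 4927. The rps median log2 ratio was 0.11 on replicate 1 and -0.35 on replicate 2. Over the rps regions the 2 replicates barely moved together (Pearson r = 0.0183 over 52 regions, a description of regions that share both arrays). On replicate 2 the ratio fell steeply with the reference intensity (Spearman rho = -0.912 over all regions and -0.855 over the rps regions), and on replicate 1 it did not (-0.0841 and 0.177). Of the 52 rps regions 52 had a signal above that of missing spots in at least 1 spot set on replicate 1 and 23 on replicate 2. Of all 4927 regions 4881 and 2445 did. In the single spot sets of replicate 2 the rps counts were 18 and 17.

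The highest rps region was that of rps2201, with log2 ratios of 0.42 on replicate 1 and 4.51 on replicate 2 (mean 2.46, SE 0.84, limma adjusted p = 0.124). In this fit limma gave every rps region the same SE of 0.84, which was also the median over all regions. The SE and p therefore do not measure the spread of a single region between the arrays. Its reference intensity was in the lowest 0.345% of regions, and its signal on replicate 2 was not above missing spots. Next came rps27, for eS27, at 1.85 and 0.04, and rps29, for uS14, at 0.91 and 0.35. Among the lowest were rps20 at -1.07 and -2.04 and rps1501 at -1.10 and -1.57. Past 2-fold below the median ratio of the array on both arrays were 3 rps regions, against 4.32% of all regions. None was past 2-fold above it on both, against 5.5%. The regions named for the genes that fell read -0.60 and -0.24 (rps1901), -0.40 and -1.35 (rps001), -1.64 and -0.67 (rps1001), 1.16 and -0.58 (rps1502), and -2.12 and -0.38 (rps2202) on replicates 1 and 2. None of these 5 regions was above 0 on both arrays, as were 6 of the 52 rps regions and 1350 of all 4927. The median rps region stood at percentile 67.7 of the reference, with which the ratio fell on replicate 2. Whether these counts follow from the reference was not tested.

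**Figure D4:**
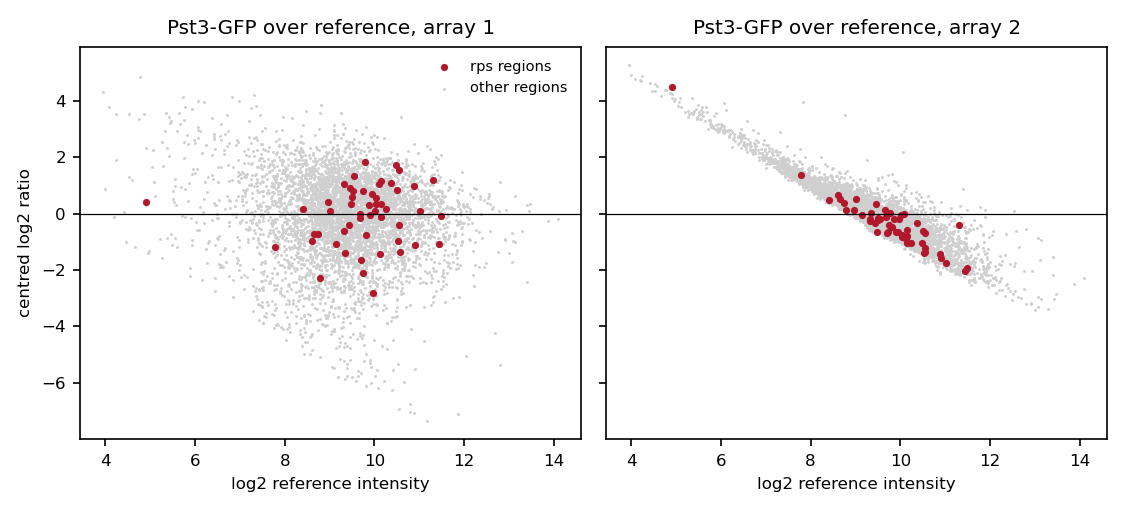
Centred log2 ratio of the Pst3-GFP signal over the authors' reference (y axis) against log2 reference intensity (x axis) for 52 rps regions (red) and all others (grey), with array 1 left and array 2 right. On array 2 the ratio declines with the reference (rho -0.912), and the rps region far left at 4.51 is rps2201.

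The beads samples, numbered 7-3 and 7-5 in their titles, came from 1 slide per probe set by their spot flags. Flags of 7-3 and 7-5 were the same at every shared spot in the first files of each and in the second ORF files, while the second IGR file of 7-5 shared a 0.863 fraction of its flags with the IGR files of 7-3. The 2 IGR files of 7-3 hold identical values, so both IGR ratios share 1 numerator, and a pass in both spot sets repeats only the signal of 7-5. The deposited channels are named for sample 7-3 and for sample 7-5, and which holds immunoprecipitated DNA is not settled by the labels, so the ratio is given as 7-3 over 7-5 with no further direction. There is no replicate and no test. Past 2-fold in both spot sets were 19 of 52 rps IGR probes (36.5%), against 22.9% of all IGR probes, and 24 of 55 rps ORF probes (43.6%), against 32.8% of all ORF probes. All of these lay on the side of 7-3 over 7-5, where 21.1% and 27.4% of all probes lay. Signals of 7-5 were near background: 9 and 8 of the 52 rps IGR probes stood above missing spots in its 2 spot sets, while 45 did for 7-3.

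Among IGR probes the highest log2 ratios, given for both spot sets, were those of rps3002 (6.02 and 5.97), rps1601 (5.17 and 5.13) and rps3001 (4.21 and 4.38). The lowest were rps1002 (-0.47 and -0.56), rps002 (-0.52 and -0.49) and rps3 (-0.48 and -0.32). The regions of both eS30 genes were thus high, as were those of both eS8 genes (rps801 with 3.59 and 3.64, and rps802 with 3.28 and 3.52). In other pairs only 1 region was high, as with rps902 (3.32 and 3.36) and rps901 (0.03 and 0.08). The same held for rps2502 (3.23 and 3.13) and rps2501 (0.85 and 0.75). Whether regions of paralogs tend to be high together was not tested. Among ORF probes the highest were rps20 (5.26 and 5.66), rps102, for eS1 (4.56 and 4.93), and rps401 (4.52 and 4.56). The other 2 genes for eS4, whose coding sequences are 87.3% to 91.4% identical among the 3, read 4.39 and 4.47 (rps402) and 4.36 and 4.38 (rps403). The lowest ORF probes were rps2801 (-0.82 and -0.94), rps3001 (-0.89 and -0.81) and rps23 (-0.67 and -0.90). The ORF and IGR probes of rps3001 therefore lay at opposite ends of the rps range.

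**Figure D5:**
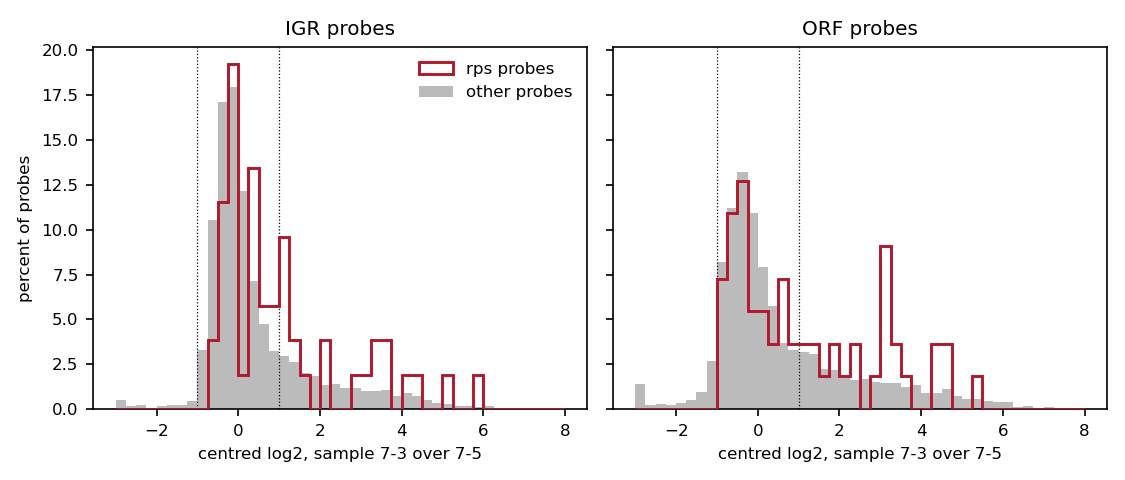
Share of probes in percent (y axis) by centred log2 ratio of sample 7-3 over 7-5 (x axis, ends pooled) for IGR probes (left panel) and ORF probes (right panel), rps probes as red outline and other probes as grey fill. The values drawn are means of the spot sets, and dotted lines mark 2-fold. Past 2-fold in both spot sets were 36.5% of rps IGR probes and 43.6% of rps ORF probes, all on the right.

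Histone H3 is a core protein of the nucleosome, and hst2 and hst4 encode deacetylases of the sirtuin family. With 1 sample per strain and probe set there is no test. The 2 spot-set files of a wild-type H3 sample had Spearman correlations of 0.801 (IGR) and 0.796 (ORF) between them, while those of the hst2D and hst4D samples had 0.176 to 0.3. Some files of different strains were closer, with 0.428 between an hst2D and an hst4D IGR file and 0.533 between an hst2D and an hst4D ORF file. Their signals were near background: 1 to 8 rps probes stood above missing spots in a file of these strains, against 22 to 38 in the wild-type files. Titles and channel names do not settle which channel of the hst2D and hst4D samples holds H3, and the values are therefore called ratios over the authors' reference.

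Past 2-fold in both spot sets were 13 of 52 rps IGR probes in hst2D, 13 in hst4D and 13 in wild type, against 31.1%, 30.7% and 31.4% of all IGR probes. For ORF probes these were 18, 20 and 21 of 55, against 24.2%, 24.3% and 24.8%. In wild type 11 of the 52 rps IGR probes were past 2-fold below the median ratio of the array, against 16.2% of all. Of the 55 rps ORF probes 15 were, against 12.2% of all. The median rps log2 ratio over IGR probes was -0.40 in hst2D, -0.47 in hst4D and -0.45 in wild type. Across IGR and ORF probes these ratios followed the reference intensity closely, with correlations of -0.90 to -0.98, and the median rps probe stood at percentile 67.8 of the reference for IGR and 65.8 for ORF probes. The highest IGR ratio in each strain was again that of rps2201 (mean of spot sets 5.02 in hst2D, 5.06 in hst4D and 4.89 in wild type), the region with the very low reference. Next in hst2D were rps502 (1.55) and rps401 (1.01), in hst4D rps502 (1.34) and rps1702 (0.96), and in wild type rps401 (1.08) and rps1702 (1.07).

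The lowest IGR ratios were those of rps1602 (-2.11), rps13 (-1.99) and rps20 (-1.99) in hst2D, of rps20 (-2.03), rps1602 (-1.99) and rps2602 (-1.88) in hst4D, and of rps20 (-2.19), rps402 (-2.15) and rps13 (-1.75) in wild type. The highest ORF ratios were those of rps3 (2.45), rps2501 (1.96) and rps1702 (1.55) in hst2D, of rps3 (2.61), rps2501 (2.24) and rps27 (1.97) in hst4D, and of rps2501 (2.47), rps3 (2.40) and rps27 (1.65) in wild type. Among the lowest ORF ratios were those of rps2 (-2.52) and rps1401 (-1.73) in hst2D, of rps2 (-2.73) and rps1202 (-1.95) in hst4D, and of rps1202 (-2.04) and rps502 (-2.03) in wild type. The IGR probes of rps2201 and rps20 and the ORF probes of rps3 and rps2501 were among these in all 3 strains, which share the reference.

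Subtracting wild type from each strain removes the shared reference. No rps probe was then past 2-fold in both spot sets, for hst2D minus wild type (0 of 52 IGR probes, against 0.202% of all, and 0 of 55 ORF probes, against 0.594%) or for hst4D minus wild type (0 of 52, against 0.405%, and 0 of 55, against 0.573%). Since the labels do not settle the channel of hst2D and hst4D, these differences may set another material against H3 of wild type. Background was left in all these signals, and those of hst2D and hst4D were near it. In their IGR files the median signals were 596 to 730.5, over median backgrounds of 505 to 635.5. This leaves little room for a 2-fold difference, so the counts of 0 say little. The rps IGR differences ran from -0.72 (rps902) to 0.74 (rps2302) in hst2D minus wild type, and from -1.12 (rps1502) to 0.71 (rps2302) in hst4D minus wild type. The ORF differences ran from -0.85 (rps1401) to 0.70 (rps1202) in hst2D minus wild type, and from -0.85 (rps1602) to 0.76 (rps1101) in hst4D minus wild type.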

How the data were processed

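Expression and chromatin labelling followed published protocols, per the labels' protocols, while scanner, filters and tools were not given in the sources used here. Per the file headers, each spot of a deposited file has a signal intensity and a background intensity, both medians, for 1 channel, and chromatin files also hold the authors' reference intensity. The authors' deposited tables of log2 values number their spots, could not be joined to probe names, and were not used. Their scale, centring and direction stay unknown, with column medians from -6.64 to 0.88.

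For expression, background was corrected with normexp (offset 50) where given, spot sets were averaged, channels quantile normalized and channels of 1 array averaged. limma's lmFit and eBayes were fitted over 4527 genes, Benjamini-Hochberg adjusted, threshold 0.05. Names of 192 probes on 2 plates exchanged on the pst3 print were left out, and probes on all arrays were tested. Paralogs were compared with exact permutation tests over arrays. For chromatin, signals were taken without background subtraction, divided by the reference, log2 transformed and median-centred, without loess. A probe was counted past 2-fold when it exceeded 1 on the log2 scale in each of its spot sets. Of the deposited names 4776 ORF and 4560 IGR names matched RefSeq's annotation, and promoters were read from that genome. Named genes were the called rps genes and their paralogs, the 3 highest and lowest rps probes per chromatin group, and the 3 largest paralog changes. The values of 1 rps gene are not reported here, although it is among the counts. The large-subunit list leaves out rpp1, rpp21 and rpp40, which RefSeq describes as RNase P or MRP subunits. The members and lists were chosen with earlier results of these data known. On simulated data for the expression comparison (4527 genes), 4%, 40%, 80% and 88% of genes changed by 1, 2, 3 and 4 were called, 50 each, and 5 unchanged genes. Signals over background limit the precision, and so does the number of arrays. Analyses used R 4.3.3, limma 3.58.1 and Python 3.11.15.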

Additional observations from a re-analysis of the deposited data

Results flagged for a closer look

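Outliers were sought in 15 groups of values, the per-array levels and paralog differences of named rps genes, where about 1 in 20 groups would be marked without any real departure, and 2 were marked. In the level of rps1902, wild-type replicate 3 stood far below the other 7 wild-type arrays, at a log2 level of 7.51. In the paralog difference rps1901 minus rps1902 the same array stood far above the others, at 7.39. The signals over background of rps1902 on that array were -209 and -9 for one channel and -66 and -18 for the other, in both spot sets, and 4 other rps genes were also not above empty spots there.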

How the results depend on the processing

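The count of 5 rps genes called, all lower, was 3 with median centring or with the print as a random block, 8 with wild-type replicates 1 to 5 alone (6 lower) or with arrays of a shared title code averaged (7 lower), and 1 to 6 when an array was left out (1 without pst3 replicate 1, 3 without pst3 replicate 2). The calls over all genes were 202, 156, 720 and 906 under those settings, 818 with wild-type replicates 6 to 8 alone, and 45 and 84 without a pst3 array. The call of rps1901 held under all 20 alternatives, those of rps001 and rps1001 under 19, of rps1502 under 15 and of rps2202 under 8. Between the wild-type prints, where 1 rps gene was called, the count was 0 with net signal and 2 without the dimmest 25%. When an array was left out it was 0 to 2, with 139 to 678 calls over all genes. With the title code as a replicate block it was 0, with 73 calls over all genes. Arrays sharing a title code did not deviate together from the mean of their print (r from -0.385 to 0.011). The pair at -0.385 shares a print, where such deviations tend below 0 by construction. The check therefore cannot show whether arrays of 1 code hold separate RNA. No paired analysis was possible because the pst3 and wild-type arrays share no code. In Pst3-GFP, where no rps region was called, normexp gave 5 rps calls and normexp with loess 1, with 708 and 328 over all regions, 226 without the dimmest 25%, 33 with the first spot set and 0 with the second or with background subtracted. At 1.5-fold the H3 counts were 21 (hst2D), 24 (hst4D) and 25 (wild type) for IGR probes, and 33, 31 and 36 for ORF probes. Against wild type they were 3 and 2 for IGR and 1 and 4 for ORF probes at 1.5-fold. Normexp gave 1 (hst2D) and 2 (hst4D) for IGR and 4 (hst4D) for ORF probes. The shares of all probes were not computed under these H3 settings, so these counts cannot be read as particular to rps probes. The causes were not tested. Depth here is signal over background, and it limits the hst2D, hst4D and beads values most. The alternative with the authors' value table was not run.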
